A study of Mus musculus with 13 samples.

Results

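The glycolysis, lactate and glucose transport genes described here are 34 genes of the 55291 gene symbols counted in CA1 tissue of mouse organotypic entorhino-hippocampal cultures. They were taken by their symbols, as the enzymes of glycolysis with their glucose transporters, the lactate dehydrogenases and monocarboxylate transporters, and the carrier, enzyme and kinases that pass pyruvate into mitochondria. The members were chosen by symbol, but with the fold changes of both lesions against control already known, in which Eno1b stood out, so the values below describe these genes and are no independent evidence that the group changed. The cultures came from wildtype C57BL/6 pups (C57BL/6J in the protocol) of either sex, grew for at least 18 days in vitro, and gave 1 library per isolated CA1 region. There were 5 non-lesioned control cultures, 4 cultures 3 days after a Schaffer collateral lesion (SCL), which severs the axons that reach CA1 from CA3, and 4 cultures 3 days after an entorhinal cortex lesion (ECL), which cuts the entorhinal input. The lesions were mechanical, and the scar at the lesion site was not collected. By the column headings, 2 control cultures were male and 3 female, 1 SCL culture was male and 3 female, and 3 ECL cultures were male and 1 female. A slice culture holds no blood flow and takes its glucose from the medium.

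Glycolysis splits glucose into pyruvate in the cytosol. Glucose enters through the carriers Slc2a1 (GLUT1), known from endothelial cells and astrocytes, and Slc2a3 (GLUT3), known from neurons, and is trapped by the hexokinases. Pyruvate is then either reduced to lactate, which leaves or enters cells through monocarboxylate transporters, or carried into mitochondria by the Mpc1 and Mpc2 proteins and turned into acetyl-CoA by pyruvate dehydrogenase, which the Pdk kinases inhibit. Several steps have isoforms with a known cell preference in brain: Aldoc is an astrocyte marker and Eno2 is known as the neuronal enolase.

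Depth was 14371152 to 21092612 counts per control library, 16405517 to 56786613 per SCL library and 20210165 to 46449937 per ECL library. The library labels name CA1 while their protocol text speaks of the dentate gyrus. The summed normalized count of 6 CA1 pyramidal cell markers was 7168 to 12240 in the 13 libraries, and that of 3 CA3 markers was 215 to 768. That of 7 dentate granule cell markers was 1977 to 2337 in the control libraries, 1394 to 1539 after SCL and 1407 to 1731 after ECL, every lesioned library being below every control library, and none of these genes was at 0 in all libraries. The summed count of 11 microglia markers was 22683 to 26801 in the control libraries, 40796 to 77233 after SCL and 41869 to 59735 after ECL, with no overlap between lesioned and control libraries, and that of 7 endothelial markers was 543 to 896, 275 to 421 and 261 to 420. The sums of 10 astrocyte markers (188780 to 321470 in the control libraries, 223510 to 263810 after SCL, 200470 to 233180 after ECL), of 10 neuron markers (101120 to 125480, 87425 to 115370 and 87392 to 121990) and of 8 oligodendrocyte markers (113970 to 150370, 111270 to 140000 and 99934 to 151710) overlapped. Taken singly, 3 of the 10 neuron markers were lower after SCL and 5 after ECL at an adjusted p under 0.05 (edgeR), and 0 were higher. Of all genes tested, 11.8% and 12.5% were lower. In bulk tissue, fewer cells of a type and less RNA per cell cannot be told apart, and the part of these cell types in the values below was not tested. Processed pseudogenes held 1.99% to 2.30% of the counts in the control libraries, 2.31% to 2.91% after SCL and 2.46% to 2.84% after ECL.

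Per kilobase of annotated exon, the mean normalized count in the control libraries was highest for Aldoa (8877), Ldhb (7667), Tpi1 (5075), Aldoc (4606), Ldha (4432) and Pgk1 (4208). Normalized counts are raw counts scaled to a common library size with TMM factors, and dividing by exon length adjusts for the length of a gene but not for sequence shared with copies. The lowest levels per kilobase were those of Slc16a7 (46), Pdk4 (39.1), Slc16a3 (32.7) and Eno1b (13.4). Gapdh, an enzyme of very high abundance in most tissues, stood at only 61 per kilobase. Of its coding transcripts, 46.9% of the 100-base stretches occur in no other annotated transcript, 80 annotated copies are counted beside it, and these copies held 77.1% to 84.5% of the counts of the Gapdh family in the control libraries, so its level here is uncertain. The share of such stretches was 33.0% for Pgk1, 60.3% for Pgam1, 60.5% for Eno1 and 25.3% for Eno1b, so their levels and ranks are uncertain too.

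**Figure D1:**
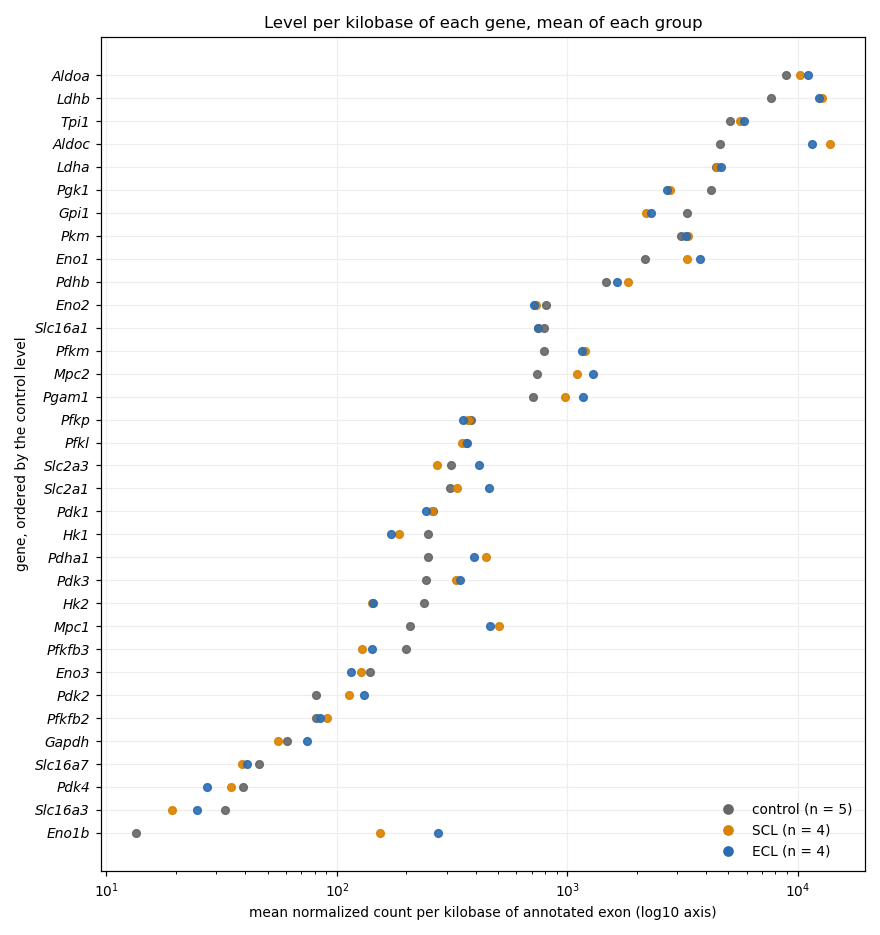
Mean normalized count per kilobase of annotated exon (log10 axis) of each of the 34 genes, ordered by the control level, with 1 point for each group (control n = 5, SCL n = 4, ECL n = 4). Aldoa stands at the top with 8877 in the control group and Eno1b at the bottom with 13.4, and the Eno1b and Aldoc points lie farthest apart between groups.

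The comparison of each lesion with the control cultures asks which of these genes changed in denervated CA1. After SCL, 7 of the 31 genes tested were higher than in control and 4 were lower, together 35.5%, where 24.9% of all 11438 genes tested were called. After ECL, 10 of the 31 genes tested other than Eno1b were higher and 3 lower, together 41.9%, where 27.8% of all 11212 genes were called. Eno1b is left out of these counts, since it reached the count minimum only through the ECL libraries and its rise was known beforehand; counting it gives 11 of 32 higher. A call is an adjusted p under 0.05 in edgeR's quasi-likelihood test with Benjamini-Hochberg adjustment over all genes that reached a mean of 150 normalized counts in that comparison, and since the list was drawn up with these results known, nothing is read from the shares. The median log2 fold change was 0.09 over the members after SCL and 0.01 over all genes tested, and 0.17 and -0.01 after ECL. Slc16a3 and Pdk4 were under the minimum in both comparisons and Eno1b after SCL. Of the 31 members tested in both comparisons, 9 were called in both and in the same direction (29.0%), as were 18.7% of all 11156 genes tested in both. All 2088 genes called in both had the same direction, and both comparisons share the 5 control libraries. Another 2 members were called after SCL and 4 after ECL. No lesioned library overlapped the control range for 6 higher and 3 lower members after SCL (29.0%, against 23.6% of all genes tested) and for 9 higher and 2 lower members after ECL, Eno1b not counted (35.5%, against 25.0%).

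**Figure D2:**
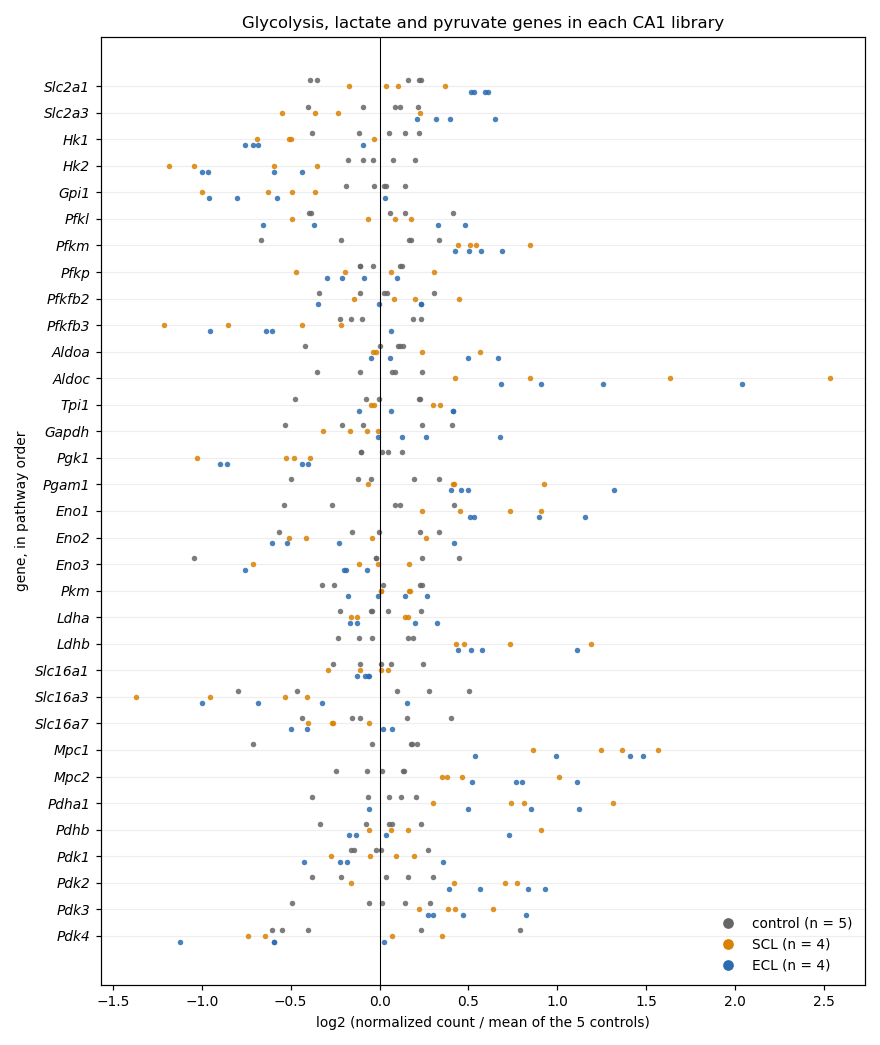
Normalized count of 33 of the genes (Eno1b left out) in each library, on a log2 scale relative to the mean of the 5 controls, in pathway order with 1 point per library. The point farthest to the right is Aldoc in SCL replicate 1, the Mpc1 points of both lesions lie right of all control points, and those of Hk2 and Pgk1 lie left of all control points.

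Among the genes of glucose entry, GLUT1 and the hexokinases differed in direction. Slc2a1 (chr4:119108711-119137983 of GRCm38, plus strand) had normalized counts of 1264, 1274, 1212, 826 and 849 in the control libraries, 963, 1164, 1401 and 1111 after SCL and 1658, 1636, 1549.7 and 1568 after ECL, in the order of the replicate numbers. All ECL libraries were above all control libraries and above all SCL libraries, while SCL and control overlapped. Its log2 fold change was 0.57 ± 0.16 (SE) after ECL (adjusted p = 0.0197, edgeR's quasi-likelihood test) and 0.09 ± 0.18 (SE) after SCL (adjusted p = 0.74), and the ECL call was lost without ECL replicate 2 (log2 fold change 0.56, adjusted p = 0.0501). Slc2a3 had counts of 2461, 2129, 1716, 2414 and 2641 in the control libraries, 1765, 1931, 2659 and 1552 after SCL and 2629, 2994, 3564 and 2835 after ECL. Of its ECL libraries, 3 of 4 lay above the control range, while SCL replicate 4 lay below it and SCL replicate 3 above it. The fold changes were 0.41 ± 0.15 (SE) after ECL (adjusted p = 0.058) and -0.20 ± 0.17 (SE) after SCL (adjusted p = 0.412). The ECL value of Slc2a3 passed the threshold under other settings, among them DESeq2 (log2 fold change 0.47, adjusted p = 0.0362), the length and GC offset (0.56, adjusted p = 0.00795) and the edgeR fit without ECL replicate 1 (0.48, adjusted p = 0.0439).

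Hexokinase 2, the inducible isoform that phosphorylates glucose, fell after both lesions. Hk2 (chr6:82725025-82774454, minus strand) had counts of 1503, 1257, 1336, 1633 and 1390.1 in the control libraries, 1115, 943, 625 and 691 after SCL and 1053, 728, 944 and 712 after ECL. Every lesioned library lay below every control library. The log2 fold change was -0.75 ± 0.18 (SE) after SCL (adjusted p = 0.0108) and -0.72 ± 0.16 (SE) after ECL (adjusted p = 0.00522), and without a filter on low counts the ECL value did not pass (-0.52, adjusted p = 0.0550). Hk1, the main hexokinase of brain, had counts of 2198, 2475, 1955, 2335 and 1628 in the control libraries, 1313, 1500.4, 1486 and 2069.7 after SCL and 1254, 1295, 1983 and 1321 after ECL. Its fold change was -0.53 ± 0.18 (SE) after ECL (adjusted p = 0.0385) and -0.41 ± 0.16 (SE) after SCL (adjusted p = 0.0803), and both lesion groups overlapped the control libraries. The ECL call of Hk1 was lost under 12 of 22 alternatives, including DESeq2 (log2 fold change -0.47, adjusted p = 0.0568) and each fit without control replicate 1, 2 or 4 or ECL replicate 1, 2 or 4 (adjusted p = 0.0604 to 0.115). After SCL, Hk1 passed without control replicate 5 (-0.50, adjusted p = 0.0486) or SCL replicate 4 (-0.56, adjusted p = 0.0243).

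The next steps, up to fructose 1,6-bisphosphate, moved apart. Gpi1 (chr7:34201330-34230336, minus strand), the isomerase that makes fructose 6-phosphate, had counts of 21915, 21744, 23663, 18735 and 20908 in the control libraries, 15192, 16664, 10728 and 13846 after SCL and 14326, 11019, 21820 and 12292 after ECL. All SCL libraries were below the control range, and ECL replicate 3 lay within it. The fold change was -0.60 ± 0.16 (SE) after SCL (adjusted p = 0.0152) and -0.52 ± 0.19 (SE) after ECL (adjusted p = 0.0548), and after ECL it passed without ECL replicate 3 (-0.76, adjusted p = 0.00392) or without control replicate 4 (-0.57, adjusted p = 0.0451). With TMM factors over all symbols, the Gpi1 value after SCL was -0.40 (adjusted p = 0.101). Of its exon bases, 11.5% lie under Gm26762 on the opposite strand, and counts were made without regard to strand.

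Phosphofructokinase is the main control point of glycolysis and is made of muscle, liver and platelet type subunits. The muscle type subunit Pfkm had counts of 2957, 3317, 2979, 1658 and 2263 in the control libraries, 3833, 4738, 3755 and 3574 after SCL and 3918, 3533, 4238 and 3727 after ECL. All lesioned libraries were above all control libraries. Its fold change was 0.59 ± 0.19 (SE) after SCL (adjusted p = 0.0374) and 0.56 ± 0.18 (SE) after ECL (adjusted p = 0.0351). The SCL call of Pfkm was lost without control replicate 1 or 5 or SCL replicate 1, 2 or 3 (log2 fold change 0.50 to 0.63, adjusted p = 0.0517 to 0.111), and the ECL call without control replicate 5 or any 1 of the ECL replicates (0.50 to 0.60, adjusted p = 0.0520 to 0.0852) and with a sex term (0.48, adjusted p = 0.0733). The liver type Pfkl and the platelet type Pfkp had fold changes of -0.06 and -0.04 after SCL and 0.03 and -0.11 after ECL, none of them called.

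Pfkfb3 makes fructose 2,6-bisphosphate, the activator of phosphofructokinase. Its counts were 1403, 1713, 1766, 1288 and 1343 in the control libraries, 648, 1112, 833 and 1292 after SCL and 777, 988, 1569.9 and 964 after ECL. Of the lesioned libraries, SCL replicate 4 and ECL replicate 3 lay within the control range and the other 6 below it. The fold change was -0.63 ± 0.20 (SE) after SCL (adjusted p = 0.0355) and -0.48 ± 0.20 (SE) after ECL (adjusted p = 0.0859). The SCL call was lost under 10 of 22 alternatives. Among them were TMM factors over all symbols (-0.44, adjusted p = 0.127) and each fit without control replicate 1, 2 or 3 or SCL replicate 1, 2 or 3 (-0.70 to -0.48, adjusted p = 0.0506 to 0.107). After ECL, Pfkfb3 passed without ECL replicate 3 (-0.71, adjusted p = 0.00919). Pfkfb2, with 19.5% of its exon bases under Gm29427, ranged from 466 to 729 in the control libraries, 534 to 803 after SCL and 464 to 694 after ECL.

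Apart from Eno1b, the largest fold changes were those of aldolase C, the astrocyte form of the enzyme that splits fructose 1,6-bisphosphate. Aldoc (chr11:78322968-78327781, plus strand) had counts of 15777, 17703, 13919, 11783 and 15966 in the control libraries, 87116, 46651, 27031 and 20192 after SCL and 61682, 35939, 24122 and 28251 after ECL. Every lesioned library was above every control library, and the lesioned libraries spread over a wide range, from 20192 in SCL replicate 4 to 87116 in SCL replicate 1. The log2 fold change was 1.59 ± 0.34 (SE) after SCL (adjusted p = 0.00669) and 1.33 ± 0.24 (SE) after ECL (adjusted p = 0.00145), and both calls were kept under all 22 alternatives (1.06 to 1.84 after SCL, 0.99 to 1.52 after ECL). Aldoa, the form of muscle and most other tissues, had fold changes of 0.21 (95% interval -0.14 to 0.56) and 0.33 (-0.03 to 0.69), neither of them called. The 10 astrocyte markers as a group, whose sums overlapped between control and lesioned libraries, held 4 genes called higher and 0 called lower in the SCL comparison, and 3 and 1 in the ECL comparison. Among all genes tested, 24.9% and 27.8% were called. Gjb6 was at 1.04 and 0.97, and Gfap at 0.85 after SCL. Sox9, also an astrocyte marker, was at -1.03 after ECL.

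**Figure D3:**
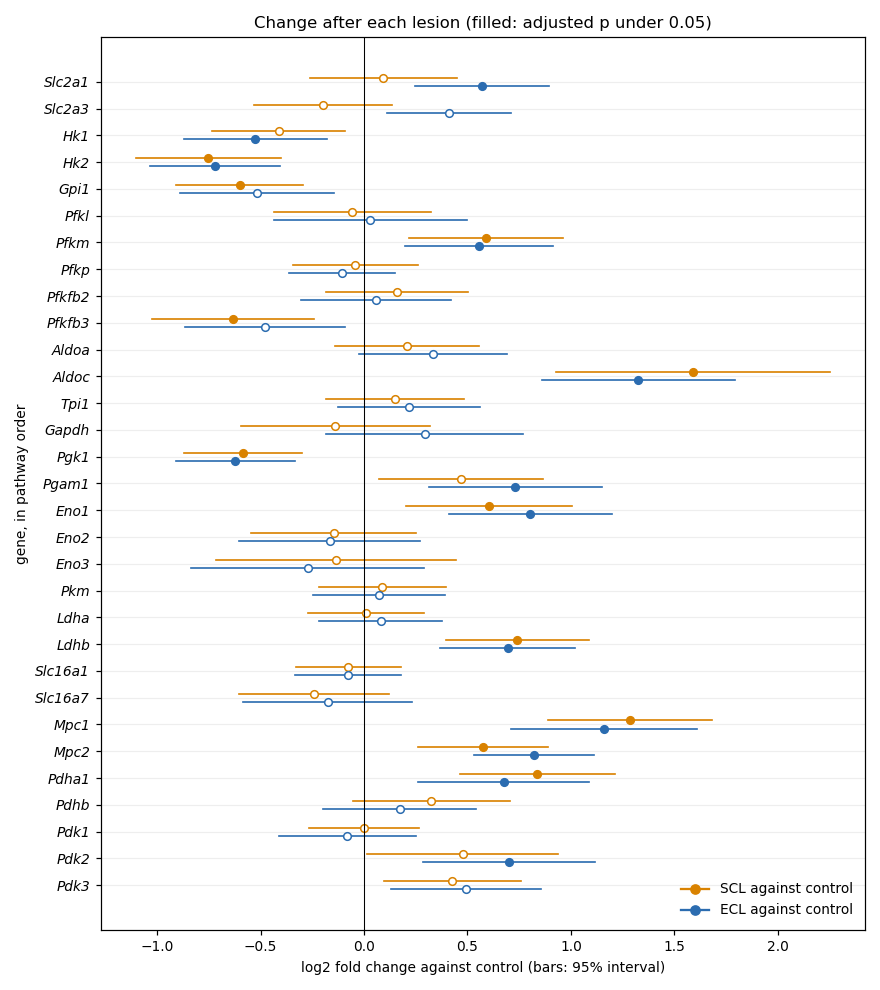
Log2 fold change against the 5 controls of the 31 genes tested in both comparisons, in pathway order, for SCL and ECL, with bars for the 95% interval and filled points where the adjusted p was under 0.05. Aldoc at 1.59 and 1.33 and Mpc1 at 1.29 and 1.16 lie farthest right, and Hk2 at -0.75 and -0.72 lies farthest left.

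Of the enzymes between the triose phosphates and pyruvate, Pgk1 fell while Eno1 and Pgam1 were higher. Pgk1 (chrX:106187100-106203699, plus strand), which makes the first ATP of the pathway, had counts of 9772, 8792, 8799, 10324 and 9522 in the control libraries, 7192, 6754, 4642 and 6561 after SCL and 6990.4, 5067, 7135 and 5216 after ECL. All lesioned libraries were below all control libraries. Its fold change was -0.59 ± 0.15 (SE) after SCL (adjusted p = 0.0127) and -0.62 ± 0.15 (SE) after ECL (adjusted p = 0.00706). With TMM factors over all symbols, which move the median of all genes tested to 0.21 after SCL and 0.18 after ECL, Pgk1 stood at -0.38 (adjusted p = 0.0800) and -0.43 (adjusted p = 0.0613). Only 33.0% of the 100-base stretches of the Pgk1 coding transcripts occur nowhere else in the annotated transcripts, and with its copies summed the values were -0.57 (adjusted p = 0.0149) and -0.60 (adjusted p = 0.00899).

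Eno1, the ubiquitous enolase, had counts of 12353, 15551, 12579, 8031 and 9666 in the control libraries, 21859, 19346, 15908 and 13722 after SCL and 25869, 16807, 21639 and 16553 after ECL. All ECL libraries and all SCL libraries except replicate 4 were above the control range. Its fold change was 0.80 ± 0.20 (SE) after ECL (adjusted p = 0.0096), a call kept under 22 of 22 alternatives, and 0.60 ± 0.20 (SE) after SCL (adjusted p = 0.046). The SCL call was lost without any 1 of control replicates 1, 3, 4 and 5 or SCL replicates 1, 2 and 3 (0.49 to 0.66, adjusted p = 0.0591 to 0.123) and with a sex term (0.64, adjusted p = 0.0533). Eno2, the neuronal enolase, had fold changes of -0.15 and -0.17, and Eno3, the muscle enolase, -0.14 and -0.27, none of them called.

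Pgam1, the phosphoglycerate mutase before enolase, had counts of 1770.3, 1290.1, 997, 1361 and 1608 in the control libraries, 2665, 1876, 1873 and 1344 after SCL and 3508, 1854, 1982 and 1933 after ECL. All ECL libraries were above the control range, with ECL replicate 1 far above the rest, and SCL replicate 4 lay within it. The fold change was 0.73 ± 0.21 (SE) after ECL (adjusted p = 0.0207) and 0.47 ± 0.20 (SE) after SCL (adjusted p = 0.103). The ECL call was lost without ECL replicate 1 (0.47, adjusted p = 0.0709) and with an offset for length and GC content (0.35, adjusted p = 0.207). After SCL, Pgam1 passed without SCL replicate 4 (0.61, adjusted p = 0.0386) and with its copies summed (0.76, adjusted p = 0.0332).

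Tpi1, Gapdh and Pkm, which make and use the triose phosphates and form pyruvate, were not called after either lesion. The fold changes of Tpi1 were 0.15 (95% interval -0.18 to 0.49) after SCL and 0.22 (-0.13 to 0.56) after ECL. Those of Gapdh were -0.14 (-0.60 to 0.32) and 0.29 (-0.18 to 0.77). Those of Pkm were 0.09 (-0.22 to 0.40) and 0.07 (-0.25 to 0.39).

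Lactate dehydrogenase is a tetramer of A and B subunits, of which the A form is known for making lactate and the B form for using it. Ldhb (chr6:142490249-142507957, minus strand) had counts of 13441, 13708, 11089, 10243 and 11705 in the control libraries, 27473, 20044, 16712 and 16190 after SCL and 26015, 17934, 17189 and 16329 after ECL. Every lesioned library was above every control library, with SCL replicate 1 and ECL replicate 1 the highest. The log2 fold change was 0.74 ± 0.18 (SE) after SCL (adjusted p = 0.0108) and 0.69 ± 0.17 (SE) after ECL (adjusted p = 0.00784). With an offset for length and GC content both calls were lost, at 0.38 (adjusted p = 0.0709) and 0.29 (adjusted p = 0.0942). Ldha (chr7:46841475-46855627, plus strand) had counts of 17235, 15160, 14163, 12554 and 14245 in the control libraries, 16402, 16183, 13106 and 13415 after SCL and 18360, 13077, 16839 and 13427 after ECL. The 3 groups overlapped, and the fold changes were 0.01 (95% interval -0.27 to 0.29) and 0.08 (-0.22 to 0.38).

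The ratio of Ldha to Ldhb counts within a library was 1.28, 1.11, 1.28, 1.23 and 1.22 in the control libraries, 0.597, 0.807, 0.784 and 0.8286 after SCL and 0.706, 0.729, 0.98 and 0.822 after ECL. It was above 1 in every control library and below 1 in every lesioned library. On the log2 scale it fell by a mean of 0.71 after SCL and 0.60 after ECL; in an exact two-sided permutation test of 5 against 4 libraries p = 0.0159, the smallest this design can give, and adjusted p = 0.0381 over the 12 ratio tests made. The Aldoc to Aldoa ratio was 0.437, 0.5, 0.391, 0.478 and 0.485 in the control libraries, 1.79, 1.2, 0.843 and 0.622 after SCL and 1.33, 1.13, 0.462 and 0.822 after ECL. After SCL it lay above the control range in all 4 libraries (exact permutation test, adjusted p = 0.0381), and after ECL replicate 3 lay within that range (adjusted p = 0.127). The Eno1 to Eno2 ratio was 3.25, 3.48, 2.62, 3.11 and 2.81 in the control libraries, 7.63, 4.23, 5.93 and 3.69 after SCL and 9.7, 6.7, 4.23 and 5.08 after ECL, above the control range in all lesioned libraries (exact permutation test, adjusted p = 0.0381 for each lesion). The ratios of Slc2a1 to Slc2a3, Slc16a1 to Slc16a7 and Hk2 to Hk1 overlapped between groups (exact permutation tests, adjusted p = 0.405 to 0.651). The ratios are of counts, not of counts per length, so a ratio of 1 does not mark equal levels. They were made without the offset for length and GC content, under which both Ldhb calls were lost. Their genes are those of the fold changes above.

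**Figure D4:**
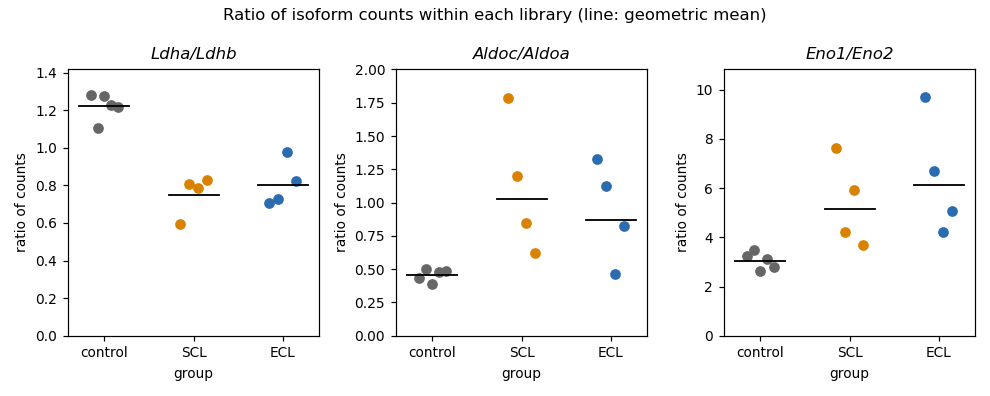
Ratio of the counts of a pair of isoforms within each library for Ldha/Ldhb, Aldoc/Aldoa and Eno1/Eno2, with 1 point per library and a line at the geometric mean of each group (control n = 5, SCL n = 4, ECL n = 4), on linear axes from 0. The Ldha/Ldhb points of the control libraries lie between 1.11 and 1.28 and those of the lesioned libraries between 0.597 and 0.980.

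The monocarboxylate transporters, which carry lactate and pyruvate across the cell membrane, were not called. Slc16a1 (MCT1) had counts of 2919 to 4147 in the control libraries, 2867 to 3622 after SCL and 3201 to 3361 after ECL, with fold changes of -0.08 (95% interval -0.33 to 0.18) and -0.08 (-0.33 to 0.18). Slc16a7 (MCT2), the neuronal form, had fold changes of -0.24 and -0.18. Slc16a3 (MCT4), the astrocyte form, was under the count minimum, with 186, 246, 211, 100.0 and 126.2 in the control libraries, 67.2, 120.4, 89.7 and 131 after SCL and 87, 139, 194 and 108 after ECL, and its groups overlapped. Bsg, the protein that brings MCT1 and MCT4 to the cell membrane, was higher after ECL (log2 fold change 0.66 ± 0.22 (SE), edgeR adjusted p = 0.034). After SCL it was at 0.33 ± 0.22 (SE) (edgeR adjusted p = 0.284). Both lesion groups overlapped the control libraries, and ECL replicate 2 (12795) lay within the control range of 7856.5 to 13877.

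Both subunits of the mitochondrial pyruvate carrier were higher after both lesions. Mpc2 (chr1:165460637-165481214, plus strand) had counts of 5449, 5909, 5947, 5145 and 4550.5 in the control libraries, 7456, 7034, 10853 and 6878 after SCL and 9398, 11660, 7727 and 9190.1 after ECL. All lesioned libraries were above all control libraries. The fold change was 0.58 ± 0.16 (SE) after SCL (adjusted p = 0.0208) and 0.82 ± 0.15 (SE) after ECL (adjusted p = 0.00143), and all 100-base stretches of its coding transcripts are its own. The ECL call was kept under 22 of 22 alternatives, and the SCL call was lost without control replicate 5 (0.52, adjusted p = 0.0522) or SCL replicate 3 (0.41, adjusted p = 0.0677).

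Mpc1 (chr17:8282904-8297661, plus strand) had counts of 492, 421, 265, 501 and 489 in the control libraries, 1284, 1026, 1117 and 789.7 after SCL and 1209.6, 1151, 629.6 and 863 after ECL. Every lesioned library was above every control library. The fold change was 1.29 ± 0.20 (SE) after SCL (adjusted p = 0.00199) and 1.16 ± 0.23 (SE) after ECL (adjusted p = 0.00252), and both calls were kept under all 22 alternatives (1.05 to 1.49 after SCL, 0.91 to 1.44 after ECL). Of the Mpc1 exon bases, 23.1% are shared with 4930506C21Rik on the opposite strand.

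Most reads of this carrier subunit were counted on a copy. Mpc1-ps (chr12:110858565-110858894, minus strand) is a single-exon copy of 330 bases, of which 328 match the Mpc1 transcript. The stretch that holds both differences is shown for the gene (bases 123 to 182 of the transcript) and for the copy (bases 28 to 87), with the 2 differing bases in capitals, from the GENCODE M21 transcripts on GRCm38.
Mpc1: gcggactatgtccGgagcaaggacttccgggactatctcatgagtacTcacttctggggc
Mpc1-ps: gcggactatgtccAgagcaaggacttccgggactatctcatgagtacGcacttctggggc
The copy had normalized counts of 4027, 3937, 1790.2, 2996 and 3282 in the control libraries, 10236, 8217, 9158 and 6667 after SCL and 10975, 11314, 5366 and 7719 after ECL. It held 85.7% to 90.4% of the counts of both in the control libraries, 88.9% to 89.4% after SCL and 89.5% to 90.8% after ECL. Its log2 fold change was 1.42 ± 0.21 (SE) after SCL (adjusted p = 0.0016) and 1.47 ± 0.25 (SE) after ECL (adjusted p = 0.000972), and with both summed it was 1.41 (adjusted p = 0.00156) and 1.44 (adjusted p = 0.000996). Within the 330 bases, reads that cover neither of the 2 positions cannot be told apart, and the direction was the same for the gene, the copy and their sum.

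Pdha1 codes for the catalytic alpha subunit of pyruvate dehydrogenase, and Pdhb for the beta subunit. Pdha1 (chrX:160122209-160138413, minus strand) had counts of 886, 959.8, 711, 1069.6 and 1005 in the control libraries, 2300.3, 1543, 1625 and 1139 after SCL and 2015, 1670.2, 887 and 1306 after ECL. All SCL libraries were above the control range, and ECL replicate 3 lay within it. The fold change of Pdha1 was 0.84 ± 0.19 (SE) after SCL (adjusted p = 0.00888), kept under 22 of 22 alternatives, and 0.67 ± 0.21 (SE) after ECL (adjusted p = 0.0286). The ECL call was lost without control replicate 1 or 3 or ECL replicate 1 or 2 (0.49 to 0.66, adjusted p = 0.0582 to 0.0976). Of its exon bases, 16.1% lie under Map3k15 on the opposite strand. Pdhb was not called, with fold changes of 0.32 (95% interval -0.05 to 0.70) and 0.17 (-0.20 to 0.54).

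Of the 4 kinases that inhibit pyruvate dehydrogenase, Pdk2 was called, and only after ECL. Its counts were 316, 287, 263, 198 and 221 in the control libraries, 343, 419, 438 and 229.8 after SCL and 380.2, 337, 458 and 489 after ECL. All ECL libraries were above the control range and SCL replicate 4 lay within it. The fold change was 0.70 ± 0.21 (SE) after ECL (adjusted p = 0.0249) and 0.48 ± 0.24 (SE) after SCL (adjusted p = 0.152). The ECL call was lost without control replicate 5 or ECL replicate 3 or 4 (0.62 to 0.66, adjusted p = 0.0509 to 0.0930) and with a sex term (0.61, adjusted p = 0.0609). Pdk3 was at 0.43 ± 0.17 (SE) after SCL (adjusted p = 0.0802) and 0.49 ± 0.19 (SE) after ECL (adjusted p = 0.0616); the ECL value passed with DESeq2 (adjusted p = 0.0345). Pdk1 was at 0.00 and -0.08, and Pdk4, under the count minimum, ranged from 90.3 to 237 in the control libraries, 82.2 to 175 after SCL and 63.1 to 139.7 after ECL.

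Several of these genes have copies elsewhere in the mouse genome. The share of counts on the copies of Aldoa (0.342% to 0.676%), Ldha (0.608% to 1.1%) and Tpi1 (0.873% to 1.44%) was low in all libraries and overlapped between groups. That of Eno1, Pgam1, Pgk1 and Pkm was higher in all ECL libraries than in the control libraries. For Eno1 and Pkm it was also higher in all SCL libraries. The share was 0.32% to 0.95% in control and 1.34% to 3.68% after ECL for Pgk1. For Pkm it was 0.31% to 1.37% in control and 2.3% to 5.0% after ECL. Eno1b, a copy of Eno1 whose transcript matches that of Eno1 at 1376 of 1385 aligned bases, had normalized counts of 21, 34.6, 25.4, 19.2 and 25.2 in the control libraries, 567, 124, 436 and 27.9 after SCL and 859, 481, 212 and 511 after ECL. It was known as one of the genes with the largest rise when the list was drawn up, and it reached the count minimum only through the ECL libraries, so its values are given without a test. All ECL libraries and 3 of 4 SCL libraries were above the control range, and SCL replicate 4 stood within it. Of the reads counted on Eno1 and Eno1b together, Eno1b held 0.170% to 0.261% in the control libraries, 2.53%, 0.635%, 2.67% and 0.203% after SCL and 3.21%, 2.78%, 0.969% and 2.99% after ECL. With Gm4735 and Gm5855 added, copies held 6.69% to 8.88% of the Eno1 family counts in the control libraries, 9.42% to 15.9% after SCL and 12.5% to 17.5% after ECL. Summing Eno1b alone with Eno1 gave log2 fold changes of 0.62 (edgeR adjusted p = 0.0416) after SCL and 0.84 (adjusted p = 0.00793) after ECL. With Gm4735 and Gm5855 summed as well, by shared 100-base stretches, they were 0.68 (edgeR adjusted p = 0.0338) and 0.93 (adjusted p = 0.00466).

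For Pgam1, the copy Pgam1-ps2 is identical over all 765 bases of its length, and none of its 100-base stretches is its own. Its normalized counts were 161, 171, 57.1, 154 and 177 in the control libraries, 1244, 521, 773 and 169.9 after SCL and 1914, 845, 547 and 1015 after ECL. All ECL libraries and 3 of 4 SCL libraries were above the control range. Copies held 5.42% to 12.4% of the Pgam1 family counts in the control libraries, 11.4% to 32.0% after SCL and 21.9% to 35.6% after ECL. Pgk1-rs7, identical to Pgk1 over 1255 bases, had counts of 0 to 7.87 in the control libraries, 11.1 to 182 after SCL and 65.3 to 230.2 after ECL, against a fall of Pgk1 itself. Gm6560, a copy of Pkm, which like Pgam1-ps2 had a control mean under the count minimum and so gets no test, had counts of 30.8 to 194 in the control libraries, 253 to 831 after SCL and 398 to 842 after ECL. Gm6123, a copy of Pdhb, had counts of 152 to 353 in the control libraries, 265 to 1035 after SCL and 286 to 975 after ECL. Pkm and Pdhb were not called. By contrast, Ldhb-ps held 8.81% to 9.34% of the Ldhb family counts in the control libraries and 9.27% to 9.97% in the lesioned libraries. The copies were named by symbol, annotation or shared stretches after their values could be seen. Counts of pseudogenes as a class were also a larger share of the lesioned libraries, as given above, and the part of sequence quality or mapping in these shares was not tested.

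**Figure D5:**
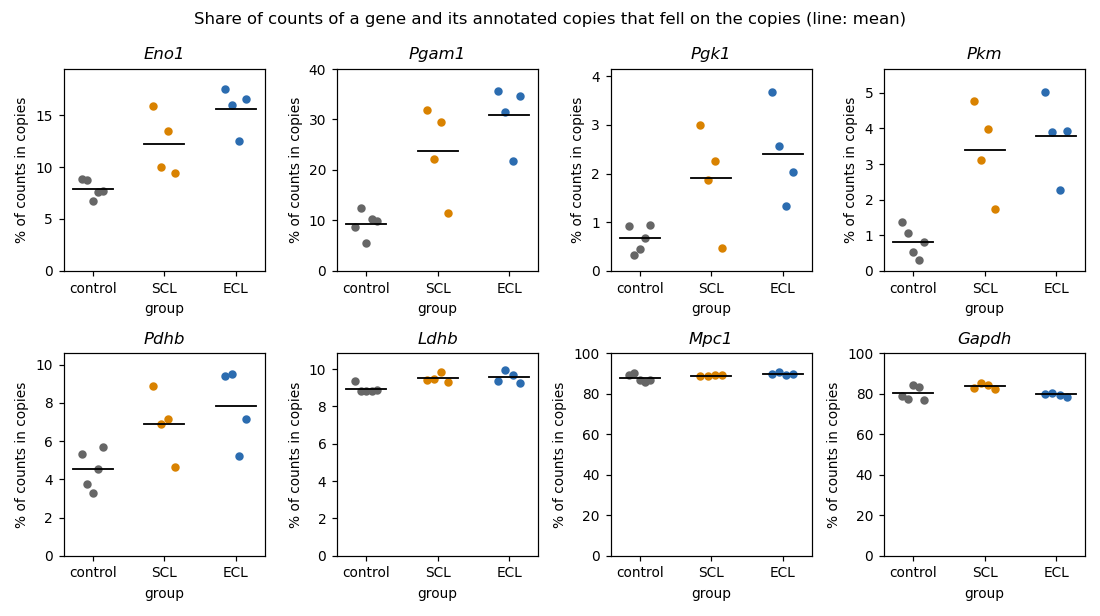
Percent of the counts of a gene and its annotated copies that fell on the copies, for 8 genes, with 1 point per library and a line at the mean of each group (control n = 5, SCL n = 4, ECL n = 4). For Eno1, Pgam1, Pgk1 and Pkm the ECL points lie above all control points, up to 17.5% for Eno1 and 35.6% for Pgam1. For Eno1 and Pkm the SCL points do so too. For Ldhb, Mpc1 and Gapdh the groups lie close together.

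The direct comparison of ECL with SCL asks whether the lesions differ. None of the 12232 genes tested was called by edgeR's quasi-likelihood test (0.0%), although 897 had an unadjusted p under 0.05, and DESeq2 called 11 higher and 54 lower. Of the 32 members tested, 3 had an unadjusted p under 0.05. Slc2a1 was higher after ECL by 0.48 ± 0.13 (SE) on the log2 scale (95% interval 0.21 to 0.74, edgeR adjusted p = 0.49), Slc2a3 by 0.61 ± 0.18 (SE) (0.27 to 0.96, edgeR adjusted p = 0.491) and Gapdh by 0.43 ± 0.19 (SE) (0.06 to 0.81, edgeR adjusted p = 0.672). Slc2a1 was the 1 member whose ECL libraries were all above the SCL libraries (3.12% of members tested, against 1.55% of all genes), and 0 members had all ECL libraries below them (against 2.27%); either way, 3.83% of all genes did not overlap. For Aldoc the difference was -0.27 with a 95% interval of -1.11 to 0.58, so these libraries leave its size open in both directions. A gene called after 1 lesion and not the other is therefore not shown to differ between the lesions.

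Genes of neighbouring pathways give the setting of these changes. In the citric acid cycle, which burns the acetyl-CoA made by pyruvate dehydrogenase, SCL left 5 of 13 genes higher and 0 lower, and ECL 3 higher and 0 lower, where 13.1% and 15.2% of all genes tested were called higher. Idh3a, a subunit of the mitochondrial isocitrate dehydrogenase, had a log2 fold change of 0.61 (adjusted p = 0.0161, edgeR) and 0.57 (adjusted p = 0.0421), Sucla2 0.82 after SCL (adjusted p = 0.0464) and Idh3b 0.47 after ECL (adjusted p = 0.0406). Sucla2 had counts of 5255 to 9952 in the control libraries and 22900, 11725, 8568 and 8556 after SCL, so SCL replicates 3 and 4 lay within the control range. Both lesion groups of Idh3a also overlapped the control libraries, and those of Idh3b did not. The median over the 13 genes was 0.41 after SCL and 0.24 after ECL, where it was 0.01 and -0.01 over all genes tested. In the pentose phosphate pathway, which branches off at glucose 6-phosphate, 2 of 6 genes were called higher and 1 lower after each lesion. Over all genes tested, 24.9% were called after SCL and 27.8% after ECL. G6pdx, its first enzyme, was at 0.73 after SCL and 1.01 after ECL (adjusted p = 0.0354 and 0.00575, edgeR). In the same order, Taldo1 was at 0.79 and 0.82 (adjusted p = 0.00535 and 0.00269, edgeR). Tkt, a transketolase, was at -0.69 and -0.89 (adjusted p = 0.0126 and 0.000912, edgeR).

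Of 11 genes of glycogen metabolism tested, 2 were called lower after SCL and 1 after ECL, where 11.8% and 12.5% of all genes were called lower. Phkg2, a phosphorylase kinase subunit, was the 1 gene called higher after each lesion. Its mean counts were 93 in control, 269 after SCL and 362 after ECL. It reached the count minimum only through the lesioned libraries, so nothing is read from its calls. The glycogen synthase Gys1 was at -0.64 after SCL (adjusted p = 0.0215, edgeR), and its SCL libraries overlapped the control libraries. Phkb was lower after both lesions, at -0.48 after SCL and -0.44 after ECL (adjusted p = 0.0138 and 0.02, edgeR). For Phkb every lesioned library lay below every control library. In the rest of the pyruvate dehydrogenase system, 1 of 7 genes was higher (Dld, 0.50) and 1 lower (Pdpr, -0.93) after SCL, and none was called after ECL, where none had an unadjusted p under 0.05. The SCL libraries of Pdpr overlapped the control libraries, and those of Dld did not. Other isoforms of glycolytic enzymes (6 tested), other hexose and lactate carriers (4 tested) and the NADH shuttles (8 tested) had 0 calls after SCL and 1 each after ECL: Pgm2l1 lower (-0.46), Bsg higher and Gpd1l lower (-0.49). Of these 3 lists, 4 NADH shuttle genes and none of the others had an unadjusted p under 0.05 after SCL.

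Many glycolysis genes are known targets of hypoxia-inducible factors. Of 9 genes of these factors and their control, 3 were lower in the SCL comparison and 2 in the ECL comparison, and 0 were higher in either, where 11.8% and 12.5% of all genes tested were called lower, with Epas1 (HIF-2 alpha) at -0.61 and -0.86 (adjusted p = 0.0382 and 0.00322, edgeR). Of 11 hypoxia-responsive genes outside glycolysis, SCL had 1 higher and 4 lower, and ECL 2 of each, where 24.9% and 27.8% of all genes were called. Vegfa, a growth factor for vessels, had mean counts of 1129.6 in control, 438 after SCL and 354 after ECL (log2 fold changes -1.37 and -1.67, adjusted p = 0.00531 and 0.00012, edgeR). Bnip3, a mitochondrial protein of mitophagy, went the other way with 3988, 9016 and 11012 (1.18 and 1.47, adjusted p = 0.0273 and 0.00249). The lists were written from textbook pathways, with earlier results of these libraries known.

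The core letters of the binding site of these factors, ACGTG, were looked for on both strands in the 250 bases before each gene start in the RefSeq promoters of GRCm38.p6. The letters overlap with CACGTG, a motif of other factors. They occurred in 16.6% of all 32851 promoters and, taking any promoter of a gene, in 18.5% of 27025 genes. Of the 31 members with an entry, 15 had them (48.4%): 4 of 10 members called higher after a lesion, 3 of 5 called lower and 8 of 16 not called. Matches stood in members of either direction. A promoter of Pfkm, called higher after both lesions, held 2 matches, and that of Slc2a1, called higher after ECL, held 1. The promoters of Gpi1, called lower after SCL, and of Hk1, called lower after ECL, held none. The promoters of Hk2 and Pgk1, which fell after both lesions, each held 2 matches, and that of Mpc2, which rose after both, held none. They are shown 5′ to 3′ on the strand of the gene with ACGTG, or CACGT for a match on the other strand, in capitals: Hk2 at chr6:82774455-82774704 (minus strand), Pgk1 at chrX:106186850-106187099 (plus strand) and Mpc2 at chr1:165461010-165461259 (plus strand).
Hk2: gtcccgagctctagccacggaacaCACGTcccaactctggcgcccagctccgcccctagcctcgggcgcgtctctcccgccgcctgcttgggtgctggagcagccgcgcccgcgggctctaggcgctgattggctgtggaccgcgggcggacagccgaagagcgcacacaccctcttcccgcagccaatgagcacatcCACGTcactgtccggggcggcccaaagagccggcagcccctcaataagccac
Pgk1: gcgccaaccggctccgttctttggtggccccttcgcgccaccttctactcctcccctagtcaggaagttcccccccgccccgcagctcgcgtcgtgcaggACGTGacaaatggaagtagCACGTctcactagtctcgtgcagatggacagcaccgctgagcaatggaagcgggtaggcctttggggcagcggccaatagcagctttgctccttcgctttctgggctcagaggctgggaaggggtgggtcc
Mpc2: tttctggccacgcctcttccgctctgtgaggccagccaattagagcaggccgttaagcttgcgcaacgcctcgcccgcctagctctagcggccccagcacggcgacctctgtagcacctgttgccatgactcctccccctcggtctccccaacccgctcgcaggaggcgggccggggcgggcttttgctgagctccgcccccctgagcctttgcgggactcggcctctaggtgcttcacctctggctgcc
A match describes the letters of this window and is not a measured binding site.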

How the data were processed

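RNA of 13 CA1 regions was read as polyadenylated cDNA after low-input amplification. According to the authors' methods, cutadapt 3.5 removed adapters, STAR 2.7.8a mapped the reads to mm10, and they were counted with featureCounts 2.0.1, unstranded, on GENCODE M25; the deposited values are raw counts, not normalized. Between 63.0% and 74.3% of counts from 1 to 20 were even, which points to each mate of a pair being counted, and halved counts were an alternative. The members and lists were chosen with earlier results of these data known; all 34 members could be named, and of other lists at most the 2 called genes with the largest change per comparison.

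SCL against control, ECL against control and ECL against SCL were fitted separately with edgeR 4.0.16 (quasi-likelihood, R 4.3.3) over genes that reached a mean of 150 normalized counts, with TMM factors over these genes, two-sided, with Benjamini-Hochberg adjustment. The biological coefficient of variation was 0.241, 0.237 and 0.221. Standard errors are the absolute log2 fold change over the square root of F, and 95% intervals come from them by the normal distribution. The number of cultures and the depth limit precision. On simulated data with 200 changed genes, 94% of 4-fold and 68% of 2-fold changes were found for SCL among 11438 genes (8.47% of calls false), 88% and 77% for ECL among 11212 (5.17% false). Isoform ratios were tested with exact permutation tests (scipy 1.17.1). Uniqueness, lengths and positions were taken from GENCODE M21 (GRCm38), and promoters from RefSeq (GRCm38.p6). Alternatives were DESeq2 1.42.0, other scalings and filters, 1 fit of all libraries, the replicate block, a sex term, an offset for length and GC content (mgcv 1.9.3), a threshold of 0.01, copies summed, and leaving out each library; summing by shared 100-base stretches was chosen after seeing the data. The reported fits left out no library.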

Additional observations from a re-analysis of the deposited data

Results flagged for a closer look

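Of 102 groups of libraries checked (34 genes in 3 groups), 6 held a library set apart from the rest by more than the 95% limit of Dixon's gap test, where chance gives about 1 in 20. Hk1 was at 1983 in ECL replicate 3, with the next library at 1321. Pgam1 was at 3508 in ECL replicate 1, with the next at 1982, and Ldhb was at 26015 in the same library, with the next at 17934. Mpc2 was at 10853 in SCL replicate 3, with the next at 7456, and Pdhb at 10611 in SCL replicate 1, with the next at 6326. Aldoa was at 24672 in control replicate 4, the lowest of its group, with the next at 32941. The causes were not tested.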

How the results depend on the processing

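Counts of members here include Eno1b after ECL. No called member changed sign under any alternative. TMM factors over all symbols left 1 member lower after each lesion, with a member median of 0.29 after SCL and 0.39 after ECL; the split of all calls moved from 1504 higher and 1344 lower to 2516 and 596 after SCL, and from 1708 and 1406 to 2435 and 695 after ECL. Without a filter on low counts, 11 members were higher and 1 lower after SCL (median 0.25), and 0 were lower after ECL. In the same setting 1 member, Eno1b, was higher after ECL than after SCL. Median-of-ratios factors gave 1761 and 989 calls over all genes after SCL. Over all genes, fits without that filter called 3168 higher and 2222 lower after SCL and 3453 and 4581 after ECL. At a threshold of 0.01, which left 560 and 485 genes after SCL and 875 and 617 after ECL, SCL had 3 members higher and 0 lower, and ECL 6 and 2. The causes were not tested. Replicate numbers did not pair the samples throughout (correlations of deviations from -0.15 to 0.53). The highest values were 0.53 for replicate 1 of ECL and SCL and 0.41 for replicate 3 of ECL and control. With the replicate block, SCL had 7 members higher and 5 lower, and ECL 9 and 5, with 1314 and 1028 genes in all after SCL. Leaving out 1 library each gave 4 to 9 higher members after SCL (4 without SCL replicate 3), 3 to 5 lower and medians of 0.02 to 0.15; after ECL 8 to 11 higher, 2 to 5 lower (5 without ECL replicate 3) and medians of 0.057 to 0.27 (0.057 without ECL replicate 1); between ECL and SCL 0 calls and medians of -0.04 to 0.13. The log2 ratio changes then ranged from -0.75 to -0.60 and -0.70 to -0.54 for Ldha/Ldhb (SCL, ECL), 0.91 to 1.42 and 0.72 to 1.23 for Aldoc/Aldoa, and 0.57 to 0.92 and 0.79 to 1.19 for Eno1/Eno2, and for Slc16a1/Slc16a7 after ECL from -0.0048 to 0.27; with 1 library fewer, no ratio test passed after adjustment, where the smallest p the design allows is larger.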
